A study of Homo sapiens with 24 samples.

Results

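The 10 genes described here make, cut, bind or modify 2 related sugar polymers of the cell surface and matrix, hyaluronan and chondroitin sulfate. They were taken from a fixed list of names (HAS2, HAS3, CEMIP, CD44, VCAN, CHST3, CHST11, CHST15, CHSY1 and XYLT1), and each was found among the 34834 genes with a value. All 10 passed the filter on low values (10 or more estimated counts in 3 or more libraries), as did 17453 genes in all. The cells were SK-MES1, an established human line derived from a squamous cell carcinoma of the lung, and all groups stem from this single line. All cultures were deprived of growth factors for 3 h and then received 2 ng/ml TGFβ1 or nothing, and RNA was sequenced at 0, 8, 24 and 48 h, with 3 replicates in each of the 8 groups and 24 libraries in all. The labels call the replicates biological but do not say whether they are separate cultures, so that p-values measure the spread between these libraries. TPM, the unit of the levels given here, is a share of all transcripts corrected for length, and a lower level in fewer cells of a mixed culture cannot be told apart from less RNA per cell.

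Hyaluronan is an unsulfated polysaccharide that hyaluronan synthases spin out at the plasma membrane. CD44 is its main cell surface receptor, and CEMIP takes part in its breakdown outside the lysosome. Chondroitin sulfate is built on core proteins such as versican (VCAN), which also binds hyaluronan. Its chains are started by xylosyltransferases (XYLT1), lengthened by chondroitin synthases (CHSY1) and decorated by sulfotransferases that place sulfate on different carbons of the sugar. In carcinoma cells, hyaluronan and CD44 are best known for their part in adhesion and migration, and TGFβ is a classical regulator of matrix genes.

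The library totals ranged from 46613589 to 77964234 estimated counts, with a median of 54120879. No pair of replicates was alike within sampling noise, with a chi-square per gene of 3.17 to 60.48 in the 24 pairs where noise alone gives about 1. The largest values, 35.65 to 60.48, belonged to the pairs with replicate 2 of the TGFβ arm at 0 and 24 h. The file names hold 4 library codes, which separate the arms and also the early (0 and 8 h) from the late (24 and 48 h) libraries. Code and arm therefore cannot be told apart at any single time. A constant offset between codes cancels in the change of the arm difference from 0 to 8 h and from 24 to 48 h. Within an arm, 24 and 48 h against 0 h crosses a change of code, so that time and code cannot be told apart there. Of 10 squamous and epithelial markers, KRT5, KRT14, KRT6A and DSG3 stayed at or below 0.102 TPM in every library, while KRT18 reached 989 TPM, KRT17 71.4 TPM, TP63 37.5 TPM, EPCAM 37.0 TPM, SOX2 8.17 TPM and CDH1 5.74 TPM. Of the keratins in this list, KRT5, KRT14 and KRT6A were thus at or near 0, whereas KRT17 and KRT18 were not. The summed level of 5 fibroblast markers was 173 to 308 TPM in untreated libraries and 189 to 2396 TPM in the TGFβ arm. COL1A1 alone reached 2359 TPM, PDGFRB 21.5 TPM and PDGFRA 11.3 TPM, whereas COL1A2 stayed at or below 0.221 TPM and THY1 at or below 7.13 TPM. The sums of 3 adenocarcinoma, 4 leukocyte and 3 endothelial markers did not exceed 2.10, 4.19 and 4.57 TPM.

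To ask which of the 10 genes responded, the arms were compared with limma voom, with an adjusted p below 0.01 (Benjamini-Hochberg over all genes tested) as the threshold. Over 8, 24 and 48 h together, 7 of the 10 genes passed the moderated F-test, against 42.5% of all genes tested. Because the 10 genes were chosen with earlier results of these data known, their counts beside the background are a description. On average over these times CHST3, CD44, CEMIP and CHSY1 were higher with TGFβ (4 of 10, background 21.0%), and HAS3, CHST15 and CHST11 were lower (3 of 10, background 21.5%). The median of the log2 differences was 0.18 for the 10 genes and -0.02 for all genes tested. At 8 h 6 of the 10 genes passed (background 16.4%), at 24 h 7 passed (background 29.3%) and at 48 h 8 passed (background 32.6%). At 0 h, before TGFβ could act, 0 of the 10 genes and 0 of all genes passed (background 0%), with 800 genes at an unadjusted p below 0.05 in limma voom and 8 genes called by DESeq2. Every one of the 3 treated TPM values lay outside the range of the 3 untreated values for 8 of the 10 genes at 8 h (background 47.4%), 7 of the 10 at 24 h (background 40.3%) and 8 of the 10 at 48 h (background 55.1%). Compared with 0 h of the same arm, 7, 7 and 8 of the 10 genes passed at 8, 24 and 48 h in untreated cells, against 25.9%, 47.5% and 55.1% of all genes. In the TGFβ arm 7, 8 and 9 of the 10 genes passed, against 33.8%, 47.0% and 57.9%. The comparisons of 24 and 48 h with 0 h cross a change of library code.

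**Figure D1:**
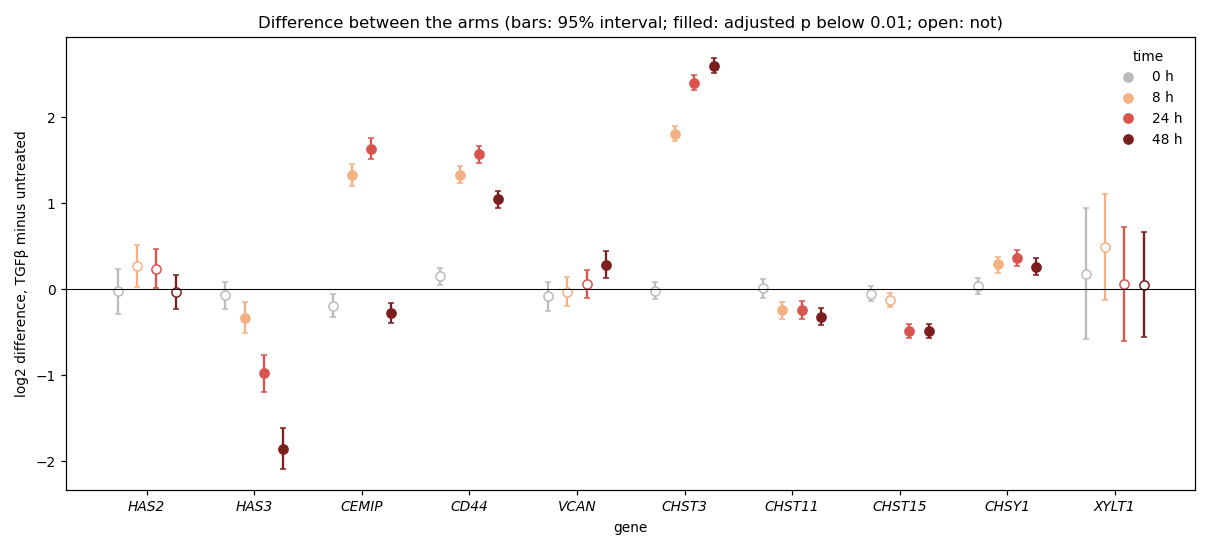
Log2 difference between TGFβ-treated and untreated SK-MES1 cells for each of the 10 genes (horizontal axis) at 0, 8, 24 and 48 h (colour). Bars are 95% intervals from limma voom fitted to all 24 libraries, with 3 libraries per group. Filled points had an adjusted p below 0.01, open points did not. CHST3 climbs from 1.81 at 8 h to 2.60 at 48 h, HAS3 falls from -0.33 to -1.85, and CEMIP crosses from 1.63 at 24 h to -0.28 at 48 h, where scaling to 4 reference genes gives 0.07 instead, which is -0.26 relative to the median of all genes.

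At the start the 10 genes covered a wide range of levels. In untreated cells at 0 h the order by mean TPM was CD44 at 298, VCAN at 63.8, CEMIP and CHSY1 both at 29.8, CHST15 at 16.9, CHST11 at 16.3, HAS3 at 11.7, CHST3 at 7.75, HAS2 at 1.46 and XYLT1 at 0.0557 TPM. The replicate ranges of CEMIP and CHSY1 overlapped, as did those of CHST15 and CHST11. After 48 h of TGFβ the order was CD44 at 512, VCAN at 269, CEMIP at 85.2, CHST3 at 41.2, CHSY1 at 35.8, CHST11 at 32.9, CHST15 at 32.2, HAS2 at 3.26, HAS3 at 1.39 and XYLT1 at 0.0928 TPM. Here CHST3 had moved above CHSY1, CHST11 and CHST15, HAS2 stood above HAS3, and the ranges of CHST11 and CHST15 overlapped.

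**Figure D2:**
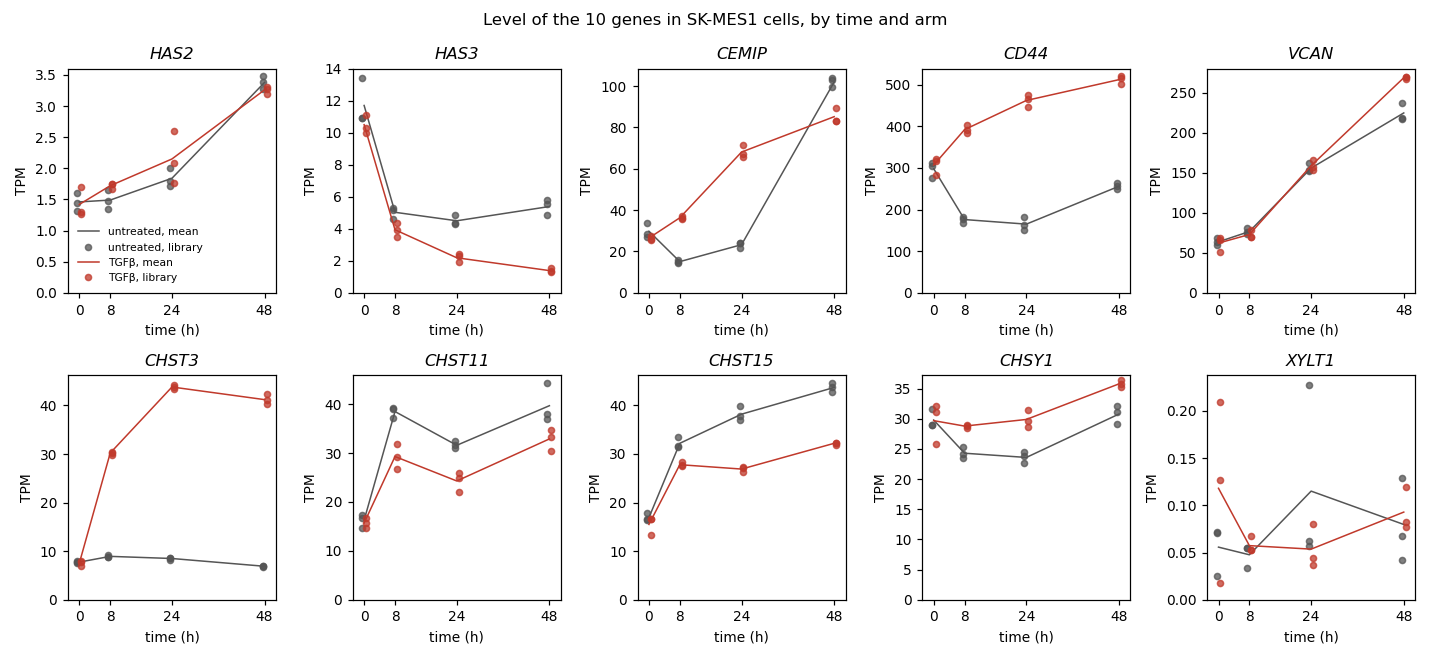
TPM of each of the 10 genes against time (h) in untreated (grey) and TGFβ (red) SK-MES1 cells, with 1 point per library and lines through the means of 3. CHST3 stays between 6.81 and 9.17 TPM without TGFβ and reaches 43.3 to 44.3 TPM with it at 24 h, whereas the points of both arms overlap for HAS2 at 0, 24 and 48 h and for VCAN up to 24 h.

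The hyaluronan synthases moved differently. HAS3 (chr16:69105653-69118719, plus strand), which makes hyaluronan of shorter chains, fell in both arms and fell further with TGFβ. In untreated cells its TPM was 13.4, 10.9 and 10.9 at 0 h, 5.27, 5.18 and 4.63 at 8 h, 4.33, 4.84 and 4.34 at 24 h, and 5.54, 5.79 and 4.86 at 48 h. In the TGFβ arm it was 10.3, 9.95 and 11.1 at 0 h, 4.36, 3.94 and 3.51 at 8 h, 2.27, 2.40 and 1.91 at 24 h, and 1.34, 1.31 and 1.53 at 48 h. The arms overlapped at 0 h, and from 8 h on every treated library was below every untreated library. The log2 difference was -0.97 ± 0.10 (SE, n = 3 per arm) at 24 h and -1.85 ± 0.12 at 48 h, with adjusted p-values of 9.8e-08 and 2.4e-11 in limma voom. The change of the difference from 24 to 48 h, in which a constant offset of the library codes cancels, came to -0.88 ± 0.15 (adjusted p = 4.2e-04 in limma voom).

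At 8 h the difference in HAS3 was -0.33 ± 0.087 (adjusted p = 0.0077 in limma voom), a call that was easily lost. Without untreated 8 h replicate 1 or 2, untreated 24 h replicate 3, untreated 48 h replicate 2, any of the 3 TGFβ 8 h replicates or TGFβ 48 h replicate 1, the adjusted p in limma voom was 0.010 to 0.042, at differences of -0.30 to -0.36. It was also lost with length-scaled counts, with library sizes taken from the 4 reference genes of the study's qRT-PCR, or with limma-trend on log2(TPM + 1), at differences of -0.31, -0.24 and -0.29 (adjusted p = 0.041, 0.041 and 0.028). From 0 to 48 h HAS3 fell by 1.17 ± 0.080 on the log2 scale without TGFβ and by 2.95 ± 0.11 with it. Exact permutation of the library labels within 8, 24 and 48 h gave p = 0.00025 for HAS3, the smallest that the 8000 relabellings allow in this two-sided test. Any gene whose arms lie apart in the same direction at 8, 24 and 48 h gets this value, so it adds nothing to the lack of overlap.

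HAS2 (chromosome 8, minus strand), the synthase of long hyaluronan chains, stayed low and was not called between the arms at any time with TMM factors. Untreated cells held 1.32 to 1.60 TPM at 0 h, 1.34 to 1.65 at 8 h, 1.72 to 2.00 at 24 h and 3.27 to 3.49 at 48 h. The TGFβ arm held 1.26 to 1.70, 1.66 to 1.75, 1.76 to 2.60 and 3.20 to 3.31 TPM at the same times. At 8 h the arms just separated, and at 24 and 48 h they overlapped. The log2 differences of 0.27 ± 0.11 at 8 h, 0.24 ± 0.11 at 24 h and -0.03 ± 0.097 at 48 h had adjusted p-values of 0.10, 0.096 and 0.84 in limma voom, with a 95% interval at 48 h of -0.23 to 0.17. Without TGFβ 24 h replicate 1, the lowest of its group, the difference at 24 h was 0.37 and that over all 3 times 0.20, with adjusted p-values of 0.0095 and 0.0085 in limma voom. With the reference genes, which moved the median of all genes to 0.34 at 24 and 48 h and to 0.25 over the 3 times, HAS2 passed at 24 h and over the 3 times, at 0.59 and 0.42 (adjusted p = 5.1e-04 and 2.3e-04 in limma voom). Relative to these medians it was at 0.25 and 0.18. From 0 to 48 h HAS2 rose in both arms, by 1.12 ± 0.11 without and 1.11 ± 0.11 with TGFβ.

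As a share of the summed TPM of HAS2 and HAS3, HAS2 made up 11.1% ± 1.51 (SD, n = 3) of untreated cells at 0 h and 38.6% ± 2.78 at 48 h. In the TGFβ arm the share went from 12.0% ± 2.28 through 30.5% ± 2.90 at 8 h and 49.3% ± 4.96 at 24 h to 70.1% ± 1.62 at 48 h. The sum itself went from 13.2 to 8.77 TPM without TGFβ and from 11.9 to 4.66 TPM with it. HAS2 and HAS3 thus contributed in reversed proportions at the end of the treatment, at a lower summed level. HAS1, the remaining synthase, did not pass the filter on counts.

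CEMIP (chr15:80779343-80951776, plus strand), the hyaluronan-binding protein involved in hyaluronan breakdown, had an arm difference that did not keep its size. Untreated cells gave 27.1, 28.7 and 33.8 TPM at 0 h, 14.5, 14.9 and 15.8 at 8 h, 24.1, 21.5 and 24.3 at 24 h, and 104, 103 and 99.8 at 48 h. The TGFβ arm gave 25.8, 26.1 and 27.7 TPM at 0 h, 35.8, 37.0 and 36.1 at 8 h, 71.5, 65.8 and 67.1 at 24 h, and 89.5, 83.0 and 83.2 at 48 h. Treated cells thus stood above untreated cells at 8 and 24 h, and untreated cells stood above treated cells at 48 h, with no overlap at these times. The log2 difference was 1.33 ± 0.062 at 8 h and 1.63 ± 0.060 at 24 h (adjusted p = 4.9e-13 and 3.9e-15 in limma voom). At 48 h it was -0.28 ± 0.056 (adjusted p = 3.6e-04 in limma voom), but with the reference genes it was 0.07 (adjusted p = 0.30), so that its sign at 48 h depended on the scaling. Relative to the median of all genes CEMIP was at -0.26 with either scaling. The change of the difference from 24 to 48 h was -1.91 ± 0.082 (adjusted p = 4.0e-12 in limma voom).

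Between 0 and 8 h CEMIP fell by 1.03 ± 0.063 on the log2 scale in untreated cells and rose by 0.49 ± 0.061 with TGFβ. By 48 h it had risen by 1.71 ± 0.058 without and by 1.63 ± 0.059 with TGFβ. The exact permutation test over the 3 times, which averages the opposite signs, gave p = 0.0050. The window upstream of its start, the last 250 bases less those in an annotated exon (chr15:80779120-80779342, plus strand), is shown because CEMIP and CHST3 had the largest differences at 24 h among the 10 genes. Capitals mark matches to CAGAC, the core of the element bound by SMAD proteins, on either strand.
CEMIP upstream: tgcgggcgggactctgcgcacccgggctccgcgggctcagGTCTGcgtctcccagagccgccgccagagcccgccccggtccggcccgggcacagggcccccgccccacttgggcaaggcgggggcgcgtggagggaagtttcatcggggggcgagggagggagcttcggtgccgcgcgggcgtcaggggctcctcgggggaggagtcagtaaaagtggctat

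CD44 (chr11:35138882-35232402, plus strand) was the most abundant of the 10 genes in every group by mean TPM. Untreated cells held 305, 276 and 311 TPM at 0 h, 178, 182 and 168 at 8 h, 162, 152 and 181 at 24 h, and 249, 263 and 256 at 48 h. The TGFβ arm held 282, 321 and 316 TPM at 0 h, 402, 384 and 390.5 at 8 h, 466, 475 and 447 at 24 h, and 520.2, 516 and 501 at 48 h. The arms overlapped at 0 h and were far apart at each later time. The log2 difference was 1.33 ± 0.046 at 8 h, grew to 1.57 ± 0.047 at 24 h and was 1.05 ± 0.046 by 48 h, which is 2.51-fold, 2.96-fold and 2.07-fold, with adjusted p-values of 3.8e-15, 1.5e-16 and 6.1e-14 in limma voom.

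The difference in CD44 was built from opposite movements. From 0 to 8 h CD44 fell by 0.72 ± 0.047 on the log2 scale in untreated cells and rose by 0.46 ± 0.046 with TGFβ, and the change of the difference, within 1 library code per arm, was 1.18 ± 0.066 (adjusted p = 2.7e-11 in limma voom). Untreated cells at 48 h had come back to a log2 difference of -0.15 ± 0.047 from 0 h, while treated cells were 0.75 ± 0.046 above it. The arm difference narrowed from 24 to 48 h by -0.52 ± 0.065 (adjusted p = 8.8e-06 in limma voom). The exact permutation test gave p = 0.00025.

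CD44 is spliced in many forms. Between exon 5 (which ends at position 35190065) and the next constant exon (which starts at position 35214852) lie 9 variant exons of the 18-exon canonical transcript, which lengthen the extracellular stem of the receptor. The standard form CD44-201 skips all of them. CD44-209 carries the last 3 variant exons, which start at position 35208105, and CD44-210 only the last, at positions 35211246 to 35211449. The joints that tell these 3 forms apart are printed because the results below turn on them, with the last 30 bases of exon 5 in lower case and the first 30 bases of the following exon in capitals, all on the plus strand of chromosome 11 in GRCh38.
CD44-201: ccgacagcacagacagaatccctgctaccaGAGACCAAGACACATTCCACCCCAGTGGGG
CD44-209: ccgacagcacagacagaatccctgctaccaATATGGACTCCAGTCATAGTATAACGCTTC
CD44-210: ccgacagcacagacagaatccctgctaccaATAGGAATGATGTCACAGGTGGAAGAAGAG

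Of the 38 CD44 transcripts, 4 made up at least 10% of the CD44 level in some group, and none of the 4 holds a variant exon. In the fit over all transcripts, the standard transcript CD44-201 rose with TGFβ by 1.47 ± 0.091, 1.69 ± 0.095 and 1.13 ± 0.083 on the log2 scale at 8, 24 and 48 h (adjusted p = 1.2e-09, 1.3e-10 and 5.6e-09 in limma voom). Its mean level went from 85.0 to 87.9 TPM between 0 and 48 h without TGFβ and from 98.8 to 189.5 TPM with it. CD44-207, which lacks exon 3 of the standard form and is annotated as a target of nonsense-mediated decay, had differences of 1.17 ± 0.11, 1.39 ± 0.11 and 1.02 ± 0.10 (adjusted p = 4.1e-07, 2.1e-08 and 3.5e-07 in limma voom). CD44-205 and CD44-204, which lack exon 6 and exon 1 of the standard form, had differences over the 3 times of 1.30 ± 0.25 and 1.02 ± 0.22 with adjusted p-values of 0.0071 and 0.018 in limma voom. The background of the transcript fit was 9.19% over the 3 times together, and 2.59%, 5.45% and 6.67% at 8, 24 and 48 h. All 4 transcripts therefore had higher values with TGFβ, 3 of them past the threshold.

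Shares within CD44 shifted less than its level. CD44-201 took 31.7% ± 1.83 (SD, n = 3) of the CD44 TPM in untreated and 37.7% ± 0.632 in treated cells at 8 h, 32.3% ± 5.41 and 35.7% ± 3.66 at 24 h, and 34.4% ± 0.692 and 37.0% ± 1.51 at 48 h. At 0 h the share was already 28.8% ± 5.01 in untreated and 32.2% ± 3.45 in TGFβ-arm libraries, with overlapping groups. The mean difference over 8, 24 and 48 h was 4.0 percentage points (exact permutation test, two-sided, p = 0.010), and the mean differences of CD44-207, CD44-205 and CD44-204 were -1.19, 0.11 and -0.93 points (exact permutation test, two-sided, p = 0.26, 0.93 and 0.46). These 4 tests were not adjusted for each other, and whether the difference of CD44-201 exceeds that at 0 h was not tested. The groups of CD44-201 overlapped at 24 h. In TGFβ 24 h replicate 2, CD44-205 held 17.6 TPM, against 51.8 and 52.9 TPM in replicates 1 and 3. CD44-204 held 74.5 TPM there, against 28.4 and 26.1 TPM. Replicate 2 was also lowest in CD44-205 in untreated 24 h (4.34 against 18.7 and 14.1 TPM) and TGFβ 0 h (6.41 against 16.1 and 22.5 TPM). In TGFβ 0 h replicate 2, CD44-204 held 60.0 TPM, against 24.5 and 27.7 TPM. In untreated 0 h and TGFβ 8 and 48 h, replicate 2 was not the lowest in CD44-205.

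The forms with variant exons were looked at after the transcript values had been seen, and are given as a description with no test. Together the 26 transcripts with a variant exon took 18.9% ± 3.10, 20.7% ± 5.31 and 18.8% ± 3.22 of the CD44 TPM at 8, 24 and 48 h in untreated cells and 19.3% ± 0.424, 15.9% ± 6.58 and 16.4% ± 3.58 in treated cells. A short fragment among them without a defined coding sequence, CD44-227, swung between 0 and 63.0 TPM in single libraries. Without it the other 25 took 13.7% ± 0.260, 13.6% ± 1.66 and 13.9% ± 1.51 in untreated and 10.7% ± 1.10, 8.30% ± 0.593 and 7.54% ± 0.970 in treated cells, so that the arms overlapped in the sum of 26 and not in the sum of 25. CD44-209 and CD44-210 together held 14.2 ± 0.942, 14.1 ± 1.35 and 21.8 ± 0.446 TPM in untreated cells at 8, 24 and 48 h. In treated cells they held 24.8 ± 2.18, 24.6 ± 3.22 and 23.7 ± 1.91 TPM. Their share was 8.07%, 8.61% and 8.52% without and 6.32%, 5.32% and 4.62% with TGFβ, so that their level with TGFβ was close to the 23.6 TPM of 0 h while that of the standard form was higher. kallisto splits reads shared by transcripts by estimation, which makes single CD44 transcripts less certain than the gene.

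**Figure D3:**
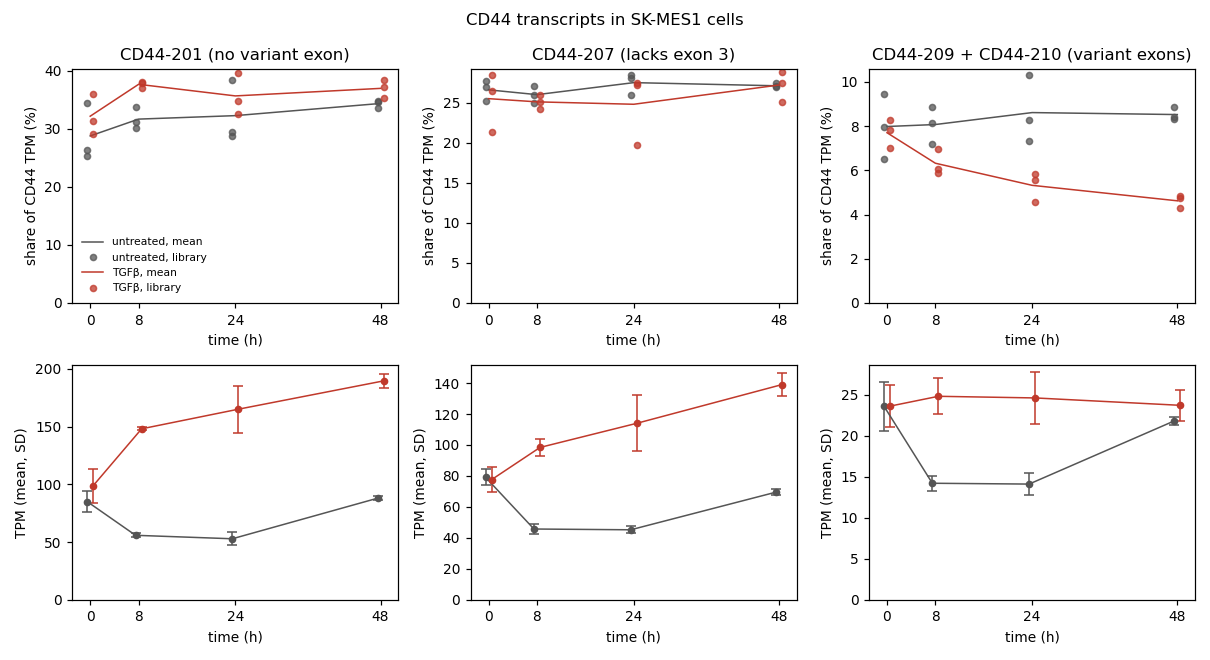
Share of the CD44 TPM (upper row, %, 1 point per library and lines through the means) and TPM (lower row, mean and SD of 3) for CD44-201, CD44-207 and the sum of CD44-209 and CD44-210 against time (h), untreated in grey and TGFβ in red. The level of CD44-201 reaches 189.5 TPM with TGFβ at 48 h, while CD44-209 and CD44-210 stay near 24 TPM and their share goes from 7.70% to 4.62%.

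Versican, the chondroitin sulfate proteoglycan that links hyaluronan to other matrix proteins (VCAN, chr5:83471618-83582303, plus strand), rose from 0 to 48 h in both arms. Untreated cells held 59.3 to 68.0 TPM at 0 h, 73.4 to 80.6 at 8 h, 152 to 162 at 24 h and 218 to 237 at 48 h. The TGFβ arm held 51.7 to 68.6, 69.5 to 79.2, 154 to 166 and 268 to 269.6 TPM. The arms overlapped up to 24 h and separated at 48 h. From 0 to 48 h VCAN rose by 1.83 ± 0.078 on the log2 scale without and by 2.19 ± 0.078 with TGFβ. Between the arms the log2 differences were -0.03 ± 0.079, 0.06 ± 0.076 and 0.28 ± 0.074 at 8, 24 and 48 h (adjusted p = 0.85, 0.55 and 0.0037 in limma voom). Without untreated 48 h replicate 2 or 3, or TGFβ 48 h replicate 1 or 2, the difference at 48 h was 0.27 to 0.28 and its adjusted p 0.014 to 0.017 in limma voom. The call at 48 h was also lost with library totals, upper-quartile factors and limma-trend on log2(TPM + 1), at 0.20, 0.24 and 0.26 (adjusted p = 0.039, 0.011 and 0.013). With the reference genes VCAN passed at 24 and 48 h, at 0.41 and 0.63 (adjusted p = 0.0011 and 8.4e-06 in limma voom), which is 0.08 and 0.30 relative to the median of all genes. Over the 3 times the adjusted p of the F-test in limma voom was 0.018, and 0.0011 or 0.0058 without TGFβ 0 h replicate 1 or 2.

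Of 12 versican transcripts, 3 made up at least 10% of its level in some group. VCAN-201 has all 15 exons, and VCAN-203 lacks exon 7 (chr5:83519349-83522309), 1 of the exons that carry the attachment sites for chondroitin sulfate. VCAN-203 was higher with TGFβ at 48 h by 0.38 ± 0.042 (adjusted p = 1.6e-06 in limma voom), at 105 ± 2.85 against 81.4 ± 3.21 TPM. VCAN-201 had a difference of 0.22 ± 0.073 (adjusted p = 0.069 in limma voom), at 99.7 ± 1.18 against 86.6 ± 3.61 TPM. Whether the differences of these transcripts differ from each other was not tested. The retained-intron transcript VCAN-206 had a difference of 0.24 ± 0.082 (adjusted p = 0.071 in limma voom).

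Among the sulfotransferases, CHST3 had the largest response of the 10 genes. CHST3 (chr10:71964395-72013558, plus strand) encodes a chondroitin 6-sulfotransferase. Untreated cells held 8.01, 7.54 and 7.70 TPM at 0 h, 8.81, 9.17 and 8.82 at 8 h, 8.60, 8.18 and 8.68 at 24 h, and 6.81, 6.91 and 6.94 at 48 h. The TGFβ arm held 6.92, 7.72 and 7.99 TPM at 0 h, 29.8, 30.3 and 30.4 at 8 h, 44.3, 43.3 and 43.9 at 24 h, and 40.2, 42.4 and 41.1 at 48 h. The arms overlapped at 0 h, and afterwards the lowest treated library held over 3 times the TPM of the highest untreated library. The log2 difference was 1.81 ± 0.042, 2.40 ± 0.042 and 2.60 ± 0.043 at 8, 24 and 48 h, which is 3.51-fold, 5.28-fold and 6.06-fold, with adjusted p-values of 4.6e-18, 2.3e-20 and 1.1e-20 in limma voom.

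From 0 to 8 h the arm difference of CHST3 widened by 1.83 ± 0.063 (adjusted p = 1.0e-14 in limma voom) and from 8 to 48 h by 0.79 ± 0.060 (adjusted p = 4.0e-09 in limma voom). From 24 to 48 h the change was 0.20 ± 0.060 (adjusted p = 0.029 in limma voom). The exact permutation test gave p = 0.00025. CHST3 has a single annotated transcript, so that its gene sum does not depend on how reads were split between transcripts.

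CHST11 and CHST15 stood on the other side. CHST11 (chr12:104455295-104762014, plus strand), a chondroitin 4-sulfotransferase, held 37.2 to 39.3 TPM at 8 h, 31.0 to 32.4 at 24 h and 37.0 to 44.4 at 48 h in untreated cells, after 14.7 to 17.3 at 0 h. With TGFβ it held 26.8 to 31.8, 22.1 to 25.9 and 30.5 to 34.8 TPM, after 14.7 to 16.8 at 0 h. CHST11 thus rose in both arms within 8 h, by 1.22 ± 0.050 on the log2 scale without and 0.97 ± 0.050 with TGFβ, and treated libraries stayed below untreated ones. Its arm difference of -0.24 ± 0.046, -0.24 ± 0.048 and -0.32 ± 0.047 at 8, 24 and 48 h (adjusted p = 4.4e-04, 4.0e-04 and 8.5e-06 in limma voom) became -0.15 at 8 h and turned to 0.11 at 24 h and 0.03 at 48 h with the reference genes (adjusted p = 0.082, 0.14 and 0.71). Relative to the median of all genes CHST11 was then at -0.23, -0.22 and -0.31. At 48 h the call was also lost with limma-trend on log2(TPM + 1) and with length-scaled counts, at -0.26 and -0.25 (adjusted p = 0.012 and 0.015). At 24 h it was lost with only the 6 libraries of that time, at -0.23 (adjusted p = 0.022 in limma voom). The transcript CHST11-206, with no defined coding sequence, held 16.6 TPM in untreated and 11.1 TPM in treated cells at 8 h. At 48 h it held 18.8 and 14.6 TPM. Over the 3 times CHST11-201, CHST11-204, CHST11-205 and CHST11-206 differed by -0.34, -0.20, -0.15 and -0.42. None passed (adjusted p = 0.016, 0.72, 0.62 and 0.013 in limma voom, background 9.19%).

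CHST15 (chr10:124007668-124093598, minus strand) adds a further sulfate to a sugar that is already sulfated. Untreated cells held 16.4 to 17.8 TPM at 0 h, 31.4 to 33.6 at 8 h, 37.0 to 39.9 at 24 h and 42.7 to 44.6 at 48 h. The TGFβ arm held 13.3 to 16.7, 27.5 to 28.3, 26.3 to 27.3 and 31.9 to 32.3 TPM. CHST15 rose from 0 to 48 h by 1.36 ± 0.042 without TGFβ and by 0.93 ± 0.043 with it, and the TPM of the arms did not overlap from 8 h on. The log2 difference was -0.13 ± 0.041 at 8 h (adjusted p = 0.025 in limma voom, and 0.0043 or 0.0097 without TGFβ 0 h replicate 1 or 3). It was -0.48 ± 0.041 at both 24 and 48 h (adjusted p = 4.4e-09 and 3.3e-09 in limma voom), and with the 4 reference genes -0.13 at both (adjusted p = 0.059 and 0.057), or -0.47 relative to the median of all genes. The exact permutation test gave p = 0.00025 for CHST11 and for CHST15, which the lack of overlap from 8 h on fixes in advance. It was run on TPM and not with the reference genes.

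The balance of the 3 sulfotransferases differed between the arms. CHST3 made up 19.0% ± 1.40 (SD, n = 3) of their summed TPM in untreated cells at the start, and 11.2% ± 0.342, 10.8% ± 0.428 and 7.64% ± 0.406 after 8, 24 and 48 h. In the TGFβ arm it made up 19.4% ± 0.311, 34.6% ± 1.13, 46.1% ± 0.562 and 38.8% ± 1.38. Their summed TPM at 48 h was 90.3 ± 4.07 without and 106 ± 0.962 with TGFβ. A share of TPM is unaffected by the scaling of the libraries, and TPM counts transcripts, not enzyme activity. CHST11-206, a transcript without a defined coding sequence, held 37.6% to 47.3% of the CHST11 TPM in the 8 groups and is included in these sums.

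**Figure D4:**
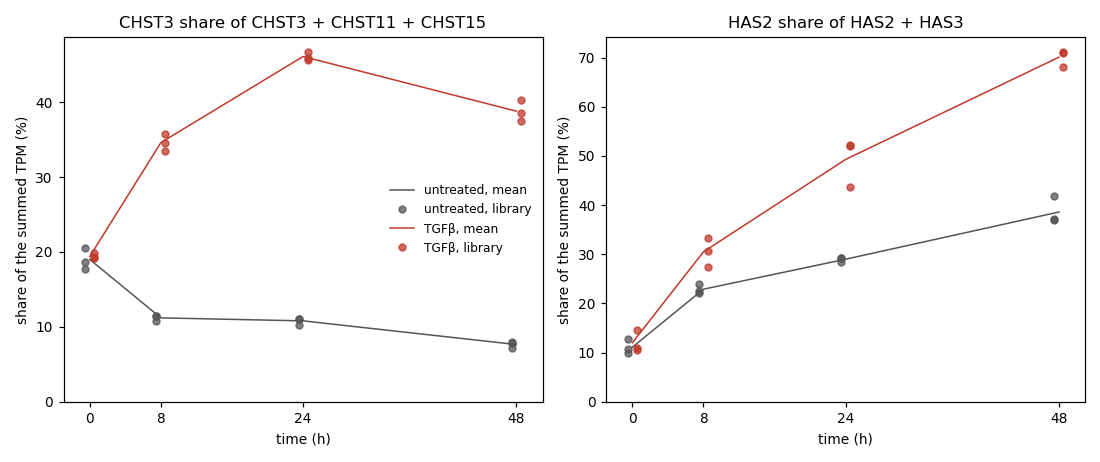
Left, CHST3 as a share (%) of the summed TPM of CHST3, CHST11 and CHST15. Right, HAS2 as a share (%) of the summed TPM of HAS2 and HAS3. Both are plotted against time (h), with 1 point per library and lines through the means of 3, untreated in grey and TGFβ in red. Both shares start near each other in the arms (19.0% and 19.4%, 11.1% and 12.0%) and end apart at 7.64% against 38.8% and at 38.6% against 70.1%.

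The sequences upstream of CHST3 and CHST15 are shown because these genes lie on the same chromosome and differed in opposite directions. Windows of 250 bases before to 50 bases after the start came from RefSeq (GRCh38.p14) and matched 9 of the 10 genes, with 11 windows. CAGAC on either strand was found in 7 of the 11 windows and in 45.3% of all 35116 windows of that length. TGANTCA, the site of AP-1 factors, read on either strand and with N as any base, was found in 1 of the 11 windows and in 7.7% of all windows. The 2 motifs did not overlap in these windows. The window at the annotated start of CHST3 held neither motif, whereas 2 later windows of CHST3 held CAGAC and 1 of them TGANTCA. That of CHST15 held CAGAC at 2 places, in capitals here. The printed stretches are chr10:71964145-71964394 on the plus strand and chr10:124093599-124093848 on the minus strand.
CHST3 upstream: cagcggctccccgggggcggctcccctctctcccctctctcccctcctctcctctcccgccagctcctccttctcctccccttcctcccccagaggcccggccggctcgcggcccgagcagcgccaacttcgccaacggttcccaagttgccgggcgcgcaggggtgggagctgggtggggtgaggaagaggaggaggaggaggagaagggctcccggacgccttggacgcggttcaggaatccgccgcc
CHST15 upstream: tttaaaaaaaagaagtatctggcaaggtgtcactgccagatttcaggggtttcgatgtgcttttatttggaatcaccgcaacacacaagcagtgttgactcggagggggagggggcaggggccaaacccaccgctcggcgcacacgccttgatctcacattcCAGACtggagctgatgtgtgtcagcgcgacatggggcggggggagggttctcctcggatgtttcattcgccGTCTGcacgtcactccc

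CHSY1 (chr15:101175727-101252048, minus strand), which lengthens the chondroitin chain, had a small difference at each time after 0 h. Untreated cells held 23.5 to 25.3 TPM at 8 h, 22.6 to 24.5 at 24 h and 29.1 to 32.1 at 48 h, and treated cells 28.5 to 29.0, 28.7 to 31.5 and 35.3 to 36.5 TPM. The arms did not overlap at these times, and both lay between 25.8 and 32.2 TPM at 0 h. The log2 differences were 0.29 ± 0.046, 0.36 ± 0.046 and 0.26 ± 0.046 in this order of times (adjusted p = 6.6e-05, 1.7e-06 and 7.3e-05 in limma voom). With limma-trend on log2(TPM + 1) the differences at 8 and 48 h missed the threshold (adjusted p = 0.014 and 0.013). In untreated cells CHSY1 fell by 0.31 ± 0.046 from 0 to 8 h, while the treated change was -0.06 ± 0.046 (adjusted p = 0.32 in limma voom).

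XYLT1 (chr16:17101769-17470960, minus strand), a xylosyltransferase that starts the chain, was near the limit of detection. It had 6 to 29 estimated counts per library, or 0.0179 to 0.227 TPM, and reached 10 counts in 22 of the 24 libraries. Its arm differences of 0.49 ± 0.30, 0.06 ± 0.32 and 0.05 ± 0.29 at 8, 24 and 48 h did not pass (adjusted p = 0.28, 0.91 and 0.91 in limma voom), and a difference between the arms was not detectable at this depth. The 95% interval at 48 h ran from -0.56 to 0.66.

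In the changes of the arm difference, CD44, CEMIP and CHST3 passed from 0 to 8 h (3 of 10, background 7.88%), and HAS3, CEMIP and CD44 passed from 24 to 48 h, each in the lower direction (3 of 10, background 5.61% lower and 9.11% in either direction). From 8 to 48 h CHST3 passed as higher and HAS3, CEMIP, CD44 and CHST15 as lower (5 of 10, background 14.0%). For CD44 this change from 8 to 48 h was -0.28 ± 0.065 (adjusted p = 0.0031 in limma voom). Without untreated 8 h replicate 1 or untreated 48 h replicate 2 or 3 it was -0.27 (adjusted p = 0.010 in limma voom). It was -0.15 with limma-trend on log2(TPM + 1), -0.18 with length-scaled counts and -0.02 with the reference genes (adjusted p = 0.24, 0.11 and 0.87). For CHST15 the change from 8 to 48 h of -0.35 was -0.22, -0.26 and -0.09 under the same settings (adjusted p = 0.084, 0.012 and 0.39), so that neither call held there. The early responses of CD44, CEMIP and CHST3 were thus called in the contrast in which library codes cancel. Those of HAS3, CHST11, CHSY1 and CHST15 were not, at changes from 0 to 8 h of -0.26, -0.25, 0.25 and -0.08. Their adjusted p-values were 0.18, 0.020, 0.013 and 0.50 in limma voom. DESeq2 called this change for CHST11 and CHSY1 (adjusted p = 0.0026 and 0.0033).

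Other genes of the same pathways are given by list, to be read against all genes tested. Of all genes tested, 42.5% passed the F-test, 21.0% as higher and 21.5% as lower. Higher and lower give the sign of the mean log2 difference over the 3 times. In absolute size the smallest such mean among the listed genes that passed was 0.0129, so that the sign says little for such genes. Of 19 further genes of hyaluronan synthesis, turnover and binding, 14 were tested and 8 passed the F-test, 4 higher and 4 lower, with a median log2 difference of 0.05. The hyaluronan-modifying secreted protein TNFAIP6 was higher by 2.71 ± 0.28 over the 3 times (adjusted p = 3.6e-07 in limma voom), at no more than 0.905 TPM in any library. The link protein HAPLN3 was higher by 0.69 ± 0.084 and UAP1, which makes the precursor UDP-N-acetylglucosamine, by 0.62 ± 0.061 (adjusted p = 4.9e-06 and 2.5e-07 in limma voom). Taken as changes from 0 h, the differences of TNFAIP6, HAPLN3 and UAP1 were 1.93, 0.52 and 0.39 with adjusted p-values of 0.033, 0.14 and 0.029 in limma voom. HAS1, SPAM1, LYVE1, HAPLN1 and HAPLN2 did not pass the filter.

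The 6 genes that build the linkage region shared by chondroitin and heparan sulfate, all tested, gave 0 calls in the F-test or at any time, with a median of 0.06. Of 5 further genes of chondroitin polymerization, 2 were higher and 1 was lower, with a median of 0.09. Of 13 genes of sulfation, epimerization and sulfate supply, 12 were tested, 5 were higher and 1 was lower, with a median of 0.14. DSE, the epimerase that converts chondroitin into dermatan sulfate, was higher by 1.28 ± 0.025 (adjusted p = 1.3e-19 in limma voom) and held 91.9, 94.8 and 92.9 TPM at 48 h, against 26.6, 26.8 and 28.2 TPM without TGFβ. At 0 h DSE lay between 21.3 and 25.2 TPM in both arms. The sulfate transporter SLC26A2 was higher by 0.65 ± 0.059 (adjusted p = 2.5e-08 in limma voom).

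Of 10 proteoglycan core genes other than VCAN, 9 were tested, 4 were higher and 4 lower, with a median of -0.17. Biglycan (BGN), a small matrix proteoglycan, went from 1.12, 1.05 and 0.918 TPM in untreated to 113, 113 and 94.3 TPM in treated cells at 48 h, a log2 difference of 6.66 ± 0.18. Decorin (DCN), its close relative, moved the other way, with 11.3, 13.4 and 11.9 TPM in untreated and 1.41, 1.17 and 1.82 TPM in treated cells at 48 h, a log2 difference of -3.30 ± 0.14. The adjusted p-values of these differences were 1.9e-17 and 4.1e-14 in limma voom. The cell surface proteoglycan SDC1 and the core protein CSPG5 were higher by 0.97 ± 0.047 and 0.96 ± 0.059 over the 3 times (adjusted p = 2.6e-12 and 3.5e-11 in limma voom). Of the 5 fibroblast markers, 3 were higher and 2 lower over the 3 times, their sum was mostly COL1A1, and their part in the values of these core genes was not tested.

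Of 6 genes of chondroitin sulfate degradation, all tested, 2 were higher and 1 was lower, with a median of -0.05. Of 14 heparan sulfate enzymes, 13 were tested, 6 were higher and 5 lower, with a median of 0.01. NDST1, which starts the sulfation of heparan sulfate, was higher by 1.19 ± 0.032, whereas the sulfotransferases HS3ST1 and HS6ST1 and the sulfatase SULF1 were lower, at 0.355-fold, 0.474-fold and 0.477-fold of the untreated level. The adjusted p-values were 1.1e-16, 5.9e-15, 9.6e-12 and 7.8e-14 in limma voom. The median of all genes tested was -0.02. CHST13, NCAN and HS6ST2 did not pass the filter.

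**Figure D5:**
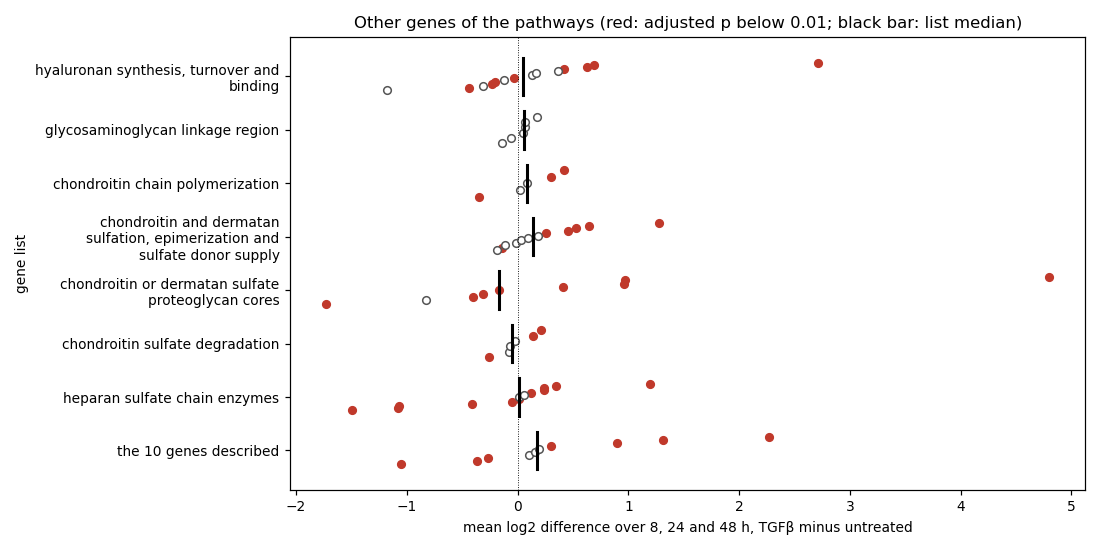
Mean log2 difference over 8, 24 and 48 h between TGFβ-treated and untreated cells (horizontal axis) for the tested genes of 7 pathway lists and for the 10 genes described here, with 1 point per gene. Red points had an adjusted p below 0.01 in the F-test, open points did not, and a black bar marks the median of each list. The linkage genes all lie near 0 with a median of 0.06, and BGN lies farthest to the right at 4.80.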

How the data were processed

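RNA-Seq libraries of 12 untreated and 12 TGFβ-arm SK-MES1 samples were used. The authors sequenced the libraries and quantified them with kallisto 0.43.0 against Ensembl 79 transcripts of GRCh38. The estimated counts deposited by the authors are kallisto's expected reads for each of 173259 transcripts, neither normalized nor whole. The authors also deposited TPM values, in which counts are corrected for effective length and brought to a common total. The effective lengths deposited by the authors served only for length-scaled counts in an alternative.

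Transcripts were matched by identifier without version to GENCODE 44 (155518, or 89.8%, with 94.82% to 95.18% of the counts), and the other 17741 were left out. Counts and TPM were summed per gene, and counts were rounded. Genes that reached 10 counts in 3 or more libraries were fitted with limma 3.58.1 (voom, TMM factors, 8 group means, R 4.3.3). Estimates are given with their SE. edgeR 4.0.16 and DESeq2 1.42.0, other scalings, filters and units, a replicate block, and each library left out in turn were alternatives. Permutation tests used log2(TPM + 1). In simulated counts with 200 changed genes among 17201, limma voom recovered 196 for the comparison over 8, 24 and 48 h (100 of 100 at a log2 change of 1.5 and 96 of 100 at 0.75) and called 1 unchanged gene. Plots were made with Python 3.11.15 and matplotlib 3.10.9.

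The 10 genes, the pathway lists and the markers were chosen with earlier results of these data known. From each list, up to 4 genes are named with the largest mean difference among those past the F-test with at least a 1.5-fold difference, besides those not tested. For each of the 10 genes the gene most correlated with it (mean TPM of at least 1) is named. Transcripts with at least 10% of a gene's TPM in some group are named too, all for CD44, VCAN and CHST11 and a few for the others. CD44-209, CD44-210, CD44-227 and the transcripts of CHST11 were named after their values were seen.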

Additional observations from a re-analysis of the deposited data

Results flagged for a closer look

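Differences between the arms that were not the same at 2 time points were singled out by a test of the change itself in limma voom, with an adjusted p below 0.01. The difference in HAS3 moved by -0.88 on the log2 scale from 24 to 48 h and by -1.52 from 8 to 48 h. For CEMIP the moves were -1.91 and -1.61, and for CD44 -0.52 and -0.28. From 8 to 48 h the difference in CHST3 moved by 0.79 and that in CHST15 by -0.35. The moves of CD44 and CHST15 from 8 to 48 h missed the threshold with limma-trend on log2(TPM + 1), at -0.15 and -0.22 (adjusted p = 0.24 and 0.084), with length-scaled counts, at -0.18 and -0.26 (adjusted p = 0.11 and 0.012), and with the reference genes, at -0.02 and -0.09 (adjusted p = 0.87 and 0.39). The change from 24 to 48 h lies within 1 library code per arm, the change from 8 to 48 h does not. What the codes stand for is not given in the sources used here, and their part in the changes from 8 to 48 h was not tested.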

How the results depend on the processing

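Of 1716 values of the 10 genes under alternatives other than leaving out a library, 1645 kept direction and side of the threshold, 41 lost the call, 26 gained it and 4 reversed. All 4 reversals came with the 4 reference genes as library size, which moved the median of all genes to 0.25 over the 3 times: CHST11 to 0.110 at 24 h and 0.028 at 48 h, CEMIP to 0.072 at 48 h, and CD44 in untreated cells, 48 against 0 h, to 0.043. With library totals that median was -0.11. Calls among all genes over the 3 times split into 3657 higher and 3753 lower in limma voom with TMM factors, 2570 and 5597 with library totals, 3012 and 4610 with upper-quartile factors and 9806 and 1381 with the reference genes. Leaving out 1 library (3360 values) took 36 calls, added 18 and reversed 0. For the named pathway genes 647 of 671 values and, with a library left out, 1230 of 1248 were kept.

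With the reference genes 11187 genes passed over the 3 times, 9282 at 24 h, 9457 at 48 h and 4063 for the change from 8 to 48 h, and 5 of the 10 genes passed at 48 h. As the change from 0 h, 4354 genes passed over the 3 times. With only the 6 libraries of a time, 5304 passed at 8 h and 2769 at 24 h. limma-trend on log2(TPM + 1) and on log2(TPM + 0.1) called 5 of the 10 genes at 48 h and 3 for the change from 8 to 48 h, as length-scaled counts did for the latter. For the change from 24 to 48 h, 1000 genes passed with log2(TPM + 0.1) and 1049 with length-scaled counts. DESeq2 called 8 genes at 0 h and 5 of the 10 for the change from 0 to 8 h. Leaving out 1 library gave 0 to 1 genes at 0 h. The cause of these moves was not tested.

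With a replicate block, 8092 genes and 8 of the 10 passed over the 3 times, VCAN joining at 0.11 (adjusted p = 0.0085 in limma voom). Same-numbered libraries of the arms correlated at -0.047 to 0.301, not each above 0.1, and 6 of 12 pairs matched best with their own number. These were every pair at 0 h (0.203, 0.296 and 0.072), replicates 1 and 2 at 24 h (0.144 and 0.301) and replicate 3 at 48 h (0.092). No pair did so at 8 h. The numbers were therefore not taken as a pairing over all times, and the replicate block stood as an alternative. With about 17 estimated counts per library, depth limits XYLT1 most.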

Other observations

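For each of the 10 genes, the gene with the most similar profile was sought among 13821 genes over the 24 libraries, as a description. The libraries share time points and arms, so that many genes follow each other. The Pearson correlation was 0.997 for CHST3 with CLTCL1, 0.987 for VCAN with FOXN3, 0.982 for CHST15 with PDP1, 0.974 for CD44 with MSN (moesin), 0.965 for HAS3 with PRDX3, 0.963 for HAS2 with SMARCC1, 0.960 for CHST11 with AKR1B10, 0.951 for CEMIP with TGM2 (transglutaminase) and 0.906 for CHSY1 with EMP1. It was lowest for XYLT1, at 0.764 with ENSG00000291259, which the annotation gives no symbol.

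Transcripts with at least 10% of the level in some group were also taken from the remaining genes, and a few of them are given here. HAS3-202 carried 70.5% to 77.4% of HAS3 in the 8 groups, both ends of this range being untreated groups (0 h and 8 h). CEMIP-201 carried 65.2% to 76.7% of CEMIP in the 8 groups. CHST15-202 carried 77.3% to 86.5% of CHST15 and differed between the arms by -0.43 ± 0.069 at 48 h (adjusted p = 1.7e-04 in limma voom). CHSY1-202, annotated as a target of nonsense-mediated decay, held 37.2% to 40.2% of CHSY1. CHST11-204 held 6.50 ± 1.91 TPM in untreated and 7.15 ± 0.707 TPM in treated cells at 48 h, a log2 difference of 0.19 ± 0.41 (adjusted p = 0.86 in limma voom), whereas CHST11 as a whole was lower with TGFβ.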
